A study of Homo sapiens with 24 samples.

Results

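The genes described here are 50 genes of the cell division cycle, 20 that act in S phase and 30 that act in G2 and mitosis. They were taken by name, with earlier results of these data known, and each is represented by its brightest probe in a cell line. All 50 had a probe on the Illumina HumanHT-12 V4 arrays, among 20046 genes with a probe of a single symbol, and 48 of them had the same brightest probe in the 3 cell lines. The arrays measured RNA of T24, a bladder carcinoma line, HL60, a promyelocytic leukemia line, and HCT116, a colorectal carcinoma line, as the labels name them. Each line was left untreated or was given clorgyline, known as a blocker of monoamine oxidase and of the lysine specific demethylase LSD1, or 5-Aza-CdR, an inhibitor of DNA methyltransferases, or both in a combinatorial treatment. Each condition had 2 arrays, which makes 24. Clorgyline was given at 10 µM every day, and 5-Aza-CdR once for 24 hours at 1 µM to T24, 0.1 µM to HL60 and 0.3 µM to HCT116. In the combinatorial treatment clorgyline began when 5-Aza-CdR had been taken off. RNA was taken at day 18 in T24 and HL60 and at day 20 in HCT116. By then 5-Aza-CdR had long been withdrawn, while clorgyline was still being given. The question asked of these genes was whether the S phase members and the G2/M members moved with each drug, and whether they moved alike in the lines.

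Before a cell divides it copies its DNA once and then shares the copies between the daughters. In G1, CDC6 and CDT1 load the MCM2-7 helicase onto replication origins, and in S phase CDC45 and GINS activate it while PCNA, the DNA polymerases, RFC and FEN1 copy and join the strands. The E2F factors, of which E2F1 is a member here, switch on many of these genes. In G2 and mitosis, cyclin A and cyclin B activate CDK1, FOXM1 and MYB-containing complexes drive a second set of genes, and the Aurora and Polo kinases, the spindle checkpoint, the kinesins and the anaphase-promoting complex separate the chromosomes. Bulk RNA reads the average of all these cells, so a smaller share of cells in S phase or mitosis and less RNA per cell cannot be told apart. 5-Aza-CdR is built into DNA during S phase, where it traps the methyltransferases.

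The 2 sets also differ in promoter sequence, which was not used to choose them. A window of 300 bases, 250 before and 50 after the annotated start, was at hand from RefSeq (GRCh38.p14) for 41 of the 50 members and for 27305 genes in all. MCM4, MCM5, CCNE2, FOXM1, AURKA, TPX2, BIRC5, TTK and UBE2C were not among the 41. For 7 members with several windows, CDK1 among them, only the first listed was used. Motifs were searched as exact letters on both strands, overlapping matches included. An E2F motif, TTTCCCGC or TTTGGCGC, was found in 11 of 17 S phase windows, 2 of 24 G2/M windows and 2.31% of all windows. The cell cycle homology region, TTTGAA, was found in none of the 17 S phase windows, in 15 of 24 G2/M windows and in 15.4% of all windows. The CCAAT box bound by NF-Y was found in 10 of 17, in 20 of 24 and in 35.7% of windows. The S phase windows held a median of 33 CG dinucleotides and the G2/M windows 23.5, against 14 over all windows. A match to these letters is a description and does not show that a factor binds there.

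The 170 bases before the start of 6 members are given 5′ to 3′ along the gene's own strand. These 6 are among the members called in HL60 below and were picked to show both promoter types. Capitals mark the matches to the 3 motifs. The S phase members are CDT1 (chr16:88803619-88803788, plus strand), MCM6 (chr2:135876444-135876613, minus strand) and POLA1 (chrX:24693748-24693917, plus strand). The G2/M members are CDK1 (chr10:60778161-60778330, plus strand), HMMR (chr5:163460462-163460631, plus strand) and DLGAP5 (chr14:55191586-55191755, minus strand).
CDT1: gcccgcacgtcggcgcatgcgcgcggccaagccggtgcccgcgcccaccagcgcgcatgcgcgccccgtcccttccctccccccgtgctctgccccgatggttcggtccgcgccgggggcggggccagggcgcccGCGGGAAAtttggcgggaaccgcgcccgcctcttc
MCM6: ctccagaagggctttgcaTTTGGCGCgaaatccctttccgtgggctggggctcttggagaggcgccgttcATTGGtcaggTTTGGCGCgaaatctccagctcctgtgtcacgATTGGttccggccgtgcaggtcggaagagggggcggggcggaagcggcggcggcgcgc
POLA1: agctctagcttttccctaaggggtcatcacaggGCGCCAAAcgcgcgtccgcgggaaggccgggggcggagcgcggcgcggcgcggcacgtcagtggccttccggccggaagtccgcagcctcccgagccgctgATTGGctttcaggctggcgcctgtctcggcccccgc
CDK1: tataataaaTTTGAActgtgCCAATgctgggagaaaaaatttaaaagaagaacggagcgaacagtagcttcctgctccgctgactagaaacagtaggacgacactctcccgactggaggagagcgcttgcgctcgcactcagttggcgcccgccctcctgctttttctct
HMMR: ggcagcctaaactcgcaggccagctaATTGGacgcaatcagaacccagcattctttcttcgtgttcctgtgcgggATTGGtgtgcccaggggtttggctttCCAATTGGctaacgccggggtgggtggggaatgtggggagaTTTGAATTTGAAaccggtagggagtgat
DLGAP5: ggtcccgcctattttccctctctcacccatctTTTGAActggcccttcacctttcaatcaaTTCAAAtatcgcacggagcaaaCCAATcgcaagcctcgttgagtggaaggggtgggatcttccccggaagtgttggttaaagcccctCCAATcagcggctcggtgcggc
In the stretches shown, each of the 3 S phase genes had an E2F motif and none had TTTGAA, and each of the 3 G2/M genes had both TTTGAA and CCAAT and no E2F motif. This follows from the choice of the 6 and does not describe the called members as a set. RFC4 and FEN1, also called in HL60, had no E2F match in their windows. CCNA2, CCNB1, CDC25C and PTTG1, called there too, had no TTTGAA. In HMMR the pair of TTTGAA matches lay side by side.

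The labels of the lines had to be checked first. Arrays of a line correlated at a median of 0.984 in HL60 and 0.985 in T24 over all probes. The 6 treated arrays labelled HCT116 correlated with the arrays labelled T24 at a median of 0.985, as closely as the T24 arrays did among themselves. The 2 arrays labelled HCT116 control stood apart from both, at medians of 0.907 and 0.909. They correlated with each other at 0.966, the lowest of the replicate pairs labelled HCT116, which reached 0.993. EPCAM, an epithelial surface protein, read 12.54 to 12.95 on the log2 scale on the arrays labelled T24 and 11.91 to 12.57 on the treated arrays labelled HCT116, and 7.84 and 7.88 on the HCT116 control arrays, which is the level of background. CDH2 (N-cadherin) and KRT7 (keratin 7) went the other way. On the HCT116 control arrays CDH2 read 11.46 and 10.87 and KRT7 11.29 and 12.11, and on the arrays labelled T24 and the treated HCT116 arrays CDH2 read 7.56 to 8.45 and KRT7 7.60 to 8.64. A gene is called bright here where its mean lay at least 0.5 above the median of all probes. Of 9 markers listed for T24, 4 were bright on the arrays labelled T24 and 8 on the arrays labelled HCT116 control, with KRT7, LOX, TGFBI, THBS1 and CDH2 not bright on the former. Of 10 colorectal markers, EPCAM and CDH1 were bright on the arrays labelled T24, EPCAM, CDH1 and CDX2 on the treated arrays labelled HCT116, and none on the HCT116 control arrays. Summed over the list, the 9 T24 markers reached 24.35 and 24.86 above the median on the HCT116 control arrays, 8.56 to 11.01 on the HCT116 treated arrays and 8.68 to 10.78 on the T24 arrays. Of 8 myeloid markers, 7 were bright in HL60 by the mean over all its arrays, all but PTPRC. ELANE was among the 7 but lay near the median of all probes on the control arrays, as given below. The values of the drug groups also went opposite ways for VIM (vimentin), which read 10.05 and 10.11 in T24 control and 11.35 to 11.94 with 5-Aza-CdR and the combinatorial treatment, but on the arrays labelled HCT116 read 11.65 and 11.90 with clorgyline and 9.55 to 9.66 with 5-Aza-CdR and the combinatorial treatment. So the lines are named here by their labels only, and the comparisons of treated HCT116 arrays with their control arrays are given last, where treatment and the difference between these arrays cannot be told apart.

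**Figure D1:**
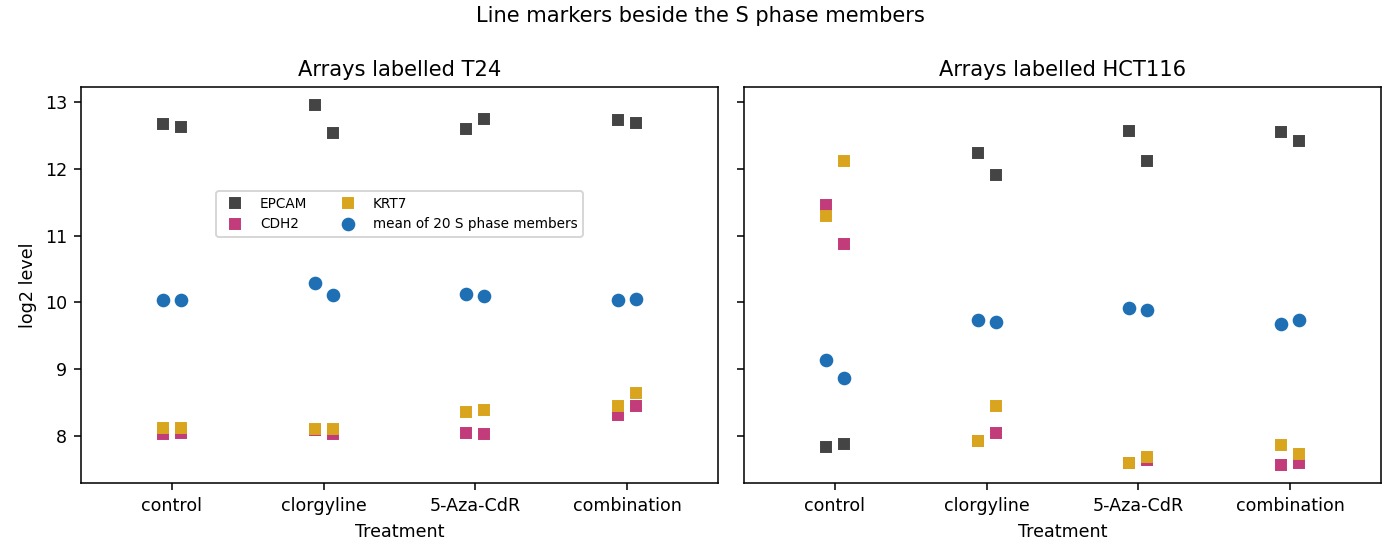
Log2 level (vertical axis) of EPCAM, CDH2 and KRT7 (squares) and of the mean of the 20 S phase members (circles) on each array labelled T24 (left) and HCT116 (right), by treatment. On the 2 HCT116 control arrays EPCAM was at 7.84 and 7.88 and the S phase mean at 9.13 and 8.86, while the 6 treated arrays had EPCAM at 11.91 to 12.57 and S phase means of 9.68 to 9.92.

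Nearly all members were well above background. In T24 45 of 50 were bright, with CDC6, CCNE2, E2F1, CDC25C and MKI67 below that limit, and in HL60 48 of 50, with CDC6 and CCNE2 below it. The share of all genes that were bright was 28.9% in T24 and 43.2% in HL60. For the dim members a fold change is measured close to background and may be compressed. Mean probe levels of the members ran from 8.02 to 12.36 in T24 and from 7.34 to 14.62 in HL60. Levels of different probes are not ranked, and since values were normalized within a line, levels are not compared between lines. Replicates of a condition correlated at 0.992 to 0.997 in T24 and 0.993 to 0.995 in HL60. Several standard marks of proliferating cells passed no test in either line. MCM2, a helicase subunit, read 12.20 and 12.43 on HL60 control arrays, 12.36 and 12.52 with clorgyline, 12.31 and 12.27 with 5-Aza-CdR and 12.41 and 12.44 with the combinatorial treatment, and in T24 it read 9.29 to 9.71 over all 8 arrays. PCNA, the sliding clamp, read 13.30 and 13.29 on HL60 control arrays, 12.93 and 13.00 with clorgyline and 13.13 to 13.78 on the other treated arrays, and in T24 11.15 to 11.58 over the 8 arrays. E2F1 read 8.04 to 8.75 in HL60 and 8.06 to 8.26 in T24, and CCNE2 (cyclin E2) 7.23 to 7.44 and 7.99 to 8.04, which is near background in T24 for both. In HL60 both clorgyline arrays lay below the control arrays for PCNA and above them for E2F1, and the groups of MCM2 overlapped. The sources do not say whether the 2 replicates came from separate cultures, so the p values cover only the spread from array to array, which may be technical. In each comparison below a change was called at a Benjamini-Hochberg adjusted p under 0.05 in limma over all genes of the line, and all comparisons of a line with control share its 2 control arrays.

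The mean of each group was first taken on every array of HL60. Relative to the 2 control arrays, the mean over the 20 S phase members was -0.04 and -0.086 with clorgyline, -0.045 and -0.061 with 5-Aza-CdR and -0.254 and -0.174 with the combinatorial treatment. The mean over the 30 G2/M members was -0.208 and -0.224 with clorgyline, 0.108 and 0.175 with 5-Aza-CdR and -0.063 and -0.02 with the combinatorial treatment. These means are given as a description, with no test. Single members weigh in them: without CDT1, a choice made after the data were seen, the S phase mean was 0.01 and 0.01 with 5-Aza-CdR and -0.17 and -0.10 with the combinatorial treatment. In the wider list of such genes described at the end, the median change with 5-Aza-CdR in HL60 was -0.02 over 41 S phase genes and -0.00 over 55 G2/M genes, with 27 of the 55 positive and 28 negative. In T24 the S phase mean was 0.249 and 0.078 with clorgyline, 0.093 and 0.049 with 5-Aza-CdR and 0.007 and 0.009 with the combinatorial treatment. The T24 G2/M mean was 0.222 and 0.206, 0.082 and 0.076, and 0.134 and 0.184 for the same treatments.

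**Figure D2:**
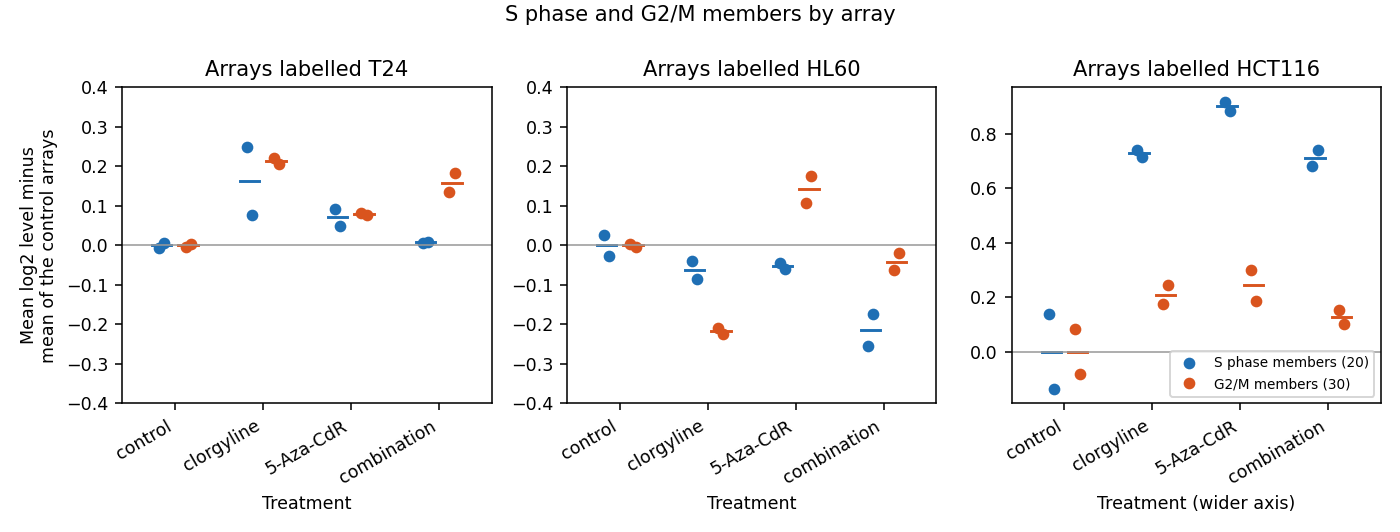
Mean log2 level of the 20 S phase members (blue) and 30 G2/M members (orange) on each array, minus the mean of the control arrays of the line (vertical axis), by treatment, with bars at the mean of 2 arrays. In HL60 the G2/M mean lay at -0.208 and -0.224 with clorgyline and at 0.108 and 0.175 with 5-Aza-CdR; the HCT116 panel has a wider axis.

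With clorgyline alone in HL60, 3 of the 50 members fell and none rose, all 3 in the G2/M group. Over all genes 0.419% fell and 0.738% rose, and over bright genes 0.948% and 1.63%. CDK1, the kinase that drives entry into mitosis, read 11.47 and 11.47 on the control arrays and 10.87 and 10.74 with clorgyline. DLGAP5, a spindle protein, read 10.70 and 10.65 on control arrays and 9.87 and 10.23 with clorgyline. BIRC5 (survivin), a subunit of the chromosomal passenger complex, read 11.29 and 11.17 on control arrays and 10.86 and 10.48 with clorgyline. In all 3 the treated arrays lay below both control arrays. CDK1 fell by 0.66 on the log2 scale (SE 0.11, limma adjusted p = 0.0173), DLGAP5 by 0.63 (SE 0.13, adjusted p = 0.0465) and BIRC5 by 0.56 (SE 0.12, adjusted p = 0.0495). The second bright probe of each gave -0.74 for CDK1, -0.42 for DLGAP5 and -0.33 for BIRC5. The CDK1 call was lost when either control array or either clorgyline array was left out, while its change stayed between -0.73 and -0.60. DLGAP5 was lost without either control array, clorgyline replicate 1 or either combination array (-0.81 to -0.44), and BIRC5 was kept only when clorgyline replicate 1 was the array left out (-0.75 to -0.37).

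Around these 3 genes the group of 30 G2/M members was low. In 19 of the 30 both clorgyline arrays lay below both control arrays, against 19.9% of all genes, and in 2 both lay above, against 20.7%. The median change was -0.23 for the G2/M members and -0.05 for the S phase members, where the median of all genes was -0.001. TOP2A (topoisomerase II alpha, which untangles the copied chromosomes) went from 12.90 and 13.04 to 12.37 and 12.58 (-0.50, SE 0.13, limma adjusted p = 0.111) and NUSAP1 from 12.46 and 12.30 to 11.86 and 11.99 (-0.46, SE 0.10, adjusted p = 0.0591). CCNB1 (cyclin B1), the partner of CDK1, went from 10.21 and 10.17 to 9.90 and 9.86 (-0.31, SE 0.09, adjusted p = 0.15), and PTTG1 (securin), which holds back separase until anaphase, from 13.59 and 13.63 to 13.22 and 13.24 (-0.38, SE 0.09, adjusted p = 0.0735). None of these passed the threshold, though in each the groups did not overlap. PTTG1 has closely related copies in the genome whose transcripts a probe may share. Among the S phase members the largest changes were 0.36 for E2F1 (SE 0.12, adjusted p = 0.214) and -0.35 for FEN1, the flap endonuclease (SE 0.08, adjusted p = 0.0761). MKI67, the proliferation marker Ki-67, was at 8.91 and 9.23 on control arrays and 9.15 and 8.82 with clorgyline, so the groups overlapped.

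5-Aza-CdR alone changed other members in HL60. Of the 50, 4 rose and 2 fell, against 5.46% and 4.94% of all genes, so the share of members called was near that of all genes. CDT1, the licensing factor that loads the MCM helicase, read 12.61 and 12.32 on the control arrays and 11.41 and 11.13 with 5-Aza-CdR, and fell by 1.19 on the log2 scale (2.29-fold, SE 0.17, limma adjusted p = 0.00123). RFC4, a subunit of the clamp loader that places PCNA on DNA, read 12.54 and 12.58 and then 12.09 and 12.21, and fell by 0.41 (SE 0.09, adjusted p = 0.0114). The 2 genes that fell were both S phase members. The second bright RFC4 probe, at a mean of 11.87, gave 0.01, so the 2 probes of RFC4 disagree. CDT1 had a single probe.

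The 4 members that rose were FEN1 in S phase and UBE2C, CCNA2 and CCNB1 in G2/M. FEN1 went from 12.71 and 12.78 to 13.18 and 13.19 (0.44, SE 0.08, limma adjusted p = 0.00662), with 0.47 at its second probe. UBE2C, the ubiquitin-conjugating enzyme of the anaphase-promoting complex, went from 11.84 and 12.08 to 12.35 and 12.59 (0.51, SE 0.11, adjusted p = 0.0114). CCNA2 (cyclin A2) went from 11.33 and 11.40 to 11.73 and 11.68 (0.34, SE 0.09, adjusted p = 0.0359) and CCNB1 from 10.21 and 10.17 to 10.59 and 10.42 (0.31, SE 0.09, adjusted p = 0.0492). In all 4 the arrays of the 2 groups did not overlap. CDC20, the activator of the anaphase-promoting complex, had the largest change of the G2/M members at 0.57 (SE 0.20) without passing the test (adjusted p = 0.111). The CDT1 call was kept without any 1 of the 8 arrays (-1.34 to -1.05). FEN1 was lost without control replicate 1, RFC4 without either control array or 5-Aza-CdR replicate 1, UBE2C without control replicate 1 or 5-Aza-CdR replicate 2, CCNA2 without any array but the 2 of the combinatorial treatment (0.31 to 0.37) and CCNB1 in all 8 (0.23 to 0.39).

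The combinatorial treatment gave the most calls in HL60, with 9 members that fell and 2 that rose, against 8.47% and 8.7% of all genes. Bright genes were called more often than dim ones, at 18.7% lower and 17.7% higher, where 9 of 48 bright members fell and 2 of 48 rose. The largest change was again CDT1, at 10.62 and 10.86 against 12.61 and 12.32 on control arrays, a change of -1.72 on the log2 scale (3.3-fold, SE 0.17, limma adjusted p = 6.7e-05). Among the helicase subunits, MCM6 went from 13.80 and 13.69 to 13.06 and 13.33 (-0.55, SE 0.10, adjusted p = 0.00366) and MCM4 from 13.43 and 13.35 to 12.87 and 12.96 (-0.47, SE 0.09, adjusted p = 0.00371). MCM2, MCM3, MCM5 and MCM7, of the same ring, did not pass, and MCM2 read 12.41 and 12.44 against 12.20 and 12.43. RFC4 went to 11.87 and 11.82 (-0.72, SE 0.09, adjusted p = 2.4e-04). POLA1, the catalytic subunit of the polymerase that starts each strand, went from 11.01 and 10.84 to 10.51 and 10.71 (-0.32, SE 0.10, adjusted p = 0.0483). CDT1 was the only member past a 2-fold change. The second bright probe of MCM4 gave 0.19 and that of RFC4 -0.01, so these 2 calls rest on 1 of 2 probes.

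Of the G2/M members, HMMR, a spindle protein, read 10.79 and 10.95 against 11.50 and 11.36 on control arrays (-0.56, SE 0.11, limma adjusted p = 0.0053), and its second probe gave -0.49. CDK1 read 11.16 and 10.94 against 11.47 and 11.47 (-0.42, SE 0.11, adjusted p = 0.0246). CDC25C, the phosphatase that activates CDK1, fell by 0.37 (SE 0.10, adjusted p = 0.0193) and NUSAP1 by 0.33 (SE 0.10, adjusted p = 0.0443). UBE2C went against them, at 12.76 and 12.80 against 11.84 and 12.08 (0.82, 1.77-fold, SE 0.11, adjusted p = 4.0e-04). FEN1 did so among the S phase members, at 13.15 and 13.13 against 12.71 and 12.78 (0.39, SE 0.08, adjusted p = 0.00703). TOP2A (-0.34, SE 0.13), CCNB1 (0.23, SE 0.09), PTTG1 (0.22, SE 0.09), PCNA (0.03, SE 0.13) and MKI67 (0.29, SE 0.15) did not pass, with adjusted p of 0.104, 0.12, 0.123, 0.933 and 0.246. The median change was -0.17 for the S phase members and -0.08 for the G2/M members.

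CDT1, MCM4, MCM6, RFC4 and UBE2C kept their calls whichever of the 8 HL60 arrays was left out. FEN1 was lost without control replicate 1 (0.35 to 0.43 over the refits), and HMMR without control replicate 1 or combination replicate 1 (-0.64 to -0.49). CDK1 was lost without either control array or combination replicate 2 (-0.53 to -0.31), and CDC25C without control replicate 2 or either combination array (-0.44 to -0.30). NUSAP1 was kept only without either 5-Aza-CdR array or combination replicate 2 (-0.42 to -0.25), and POLA1 only without combination replicate 2 (-0.41 to -0.22). The summed level of the myeloid markers was higher with 5-Aza-CdR and the combinatorial treatment, while clorgyline and control overlapped. Over 8 markers the summed level above the median of all probes was 33.99 and 34.06 on control arrays, 33.49 and 34.91 with clorgyline, 38.45 and 38.60 with 5-Aza-CdR and 39.88 and 40.81 with the combinatorial treatment. ELANE (neutrophil elastase) read 7.28 and 7.57 on control arrays, 9.87 and 9.73 with 5-Aza-CdR and 9.83 and 10.32 with the combinatorial treatment. The other markers differed in how far they ranged. Over all HL60 arrays MPO read 15.75 to 15.95, PTPRC 7.38 to 7.72 and MYB 13.78 to 14.53. CTSG read 14.13 to 15.03, SPI1 11.03 to 12.24, AZU1 11.09 to 12.63 and PRTN3 11.89 to 14.27. The part of the myeloid markers in the changes of the members was not tested.

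**Figure D3:**
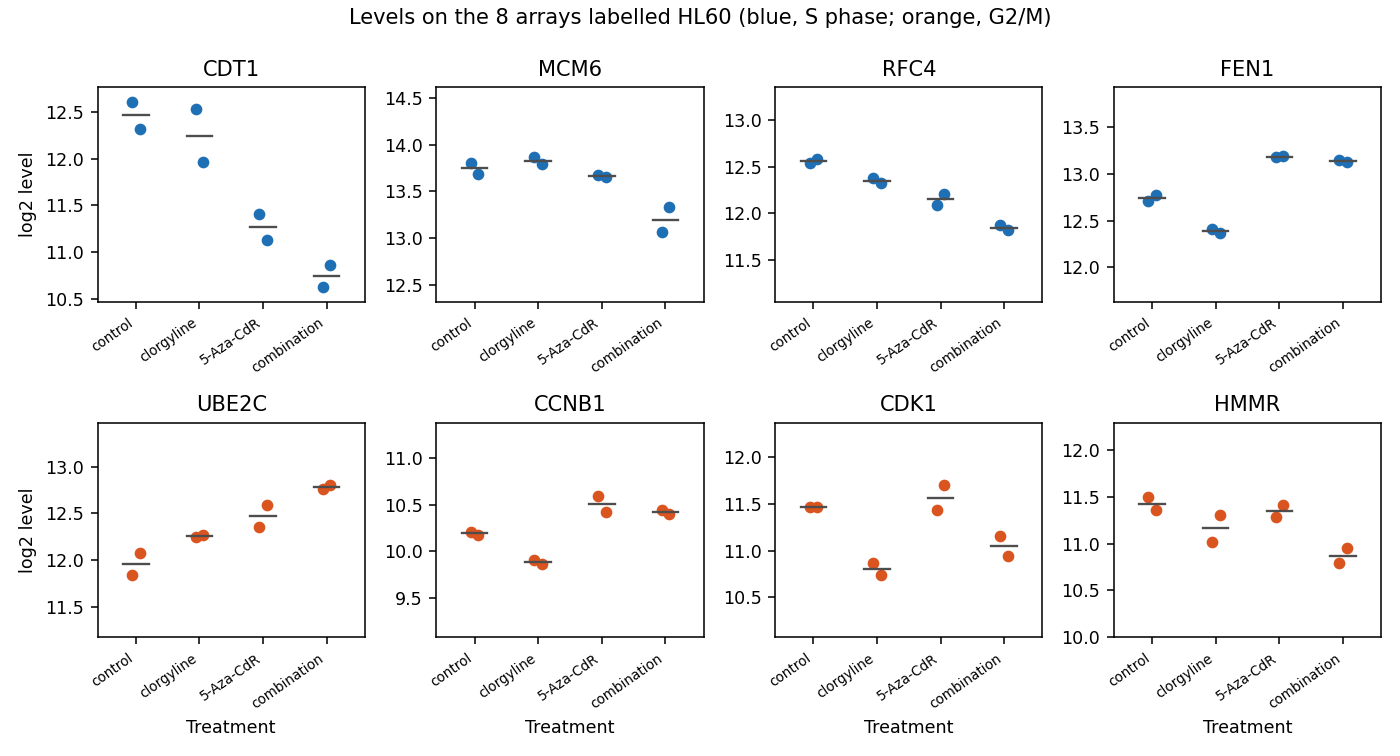
Log2 level (vertical axis, the same span in each panel) of 8 members on the 8 arrays labelled HL60, by treatment, with bars at the mean of 2 arrays. CDT1 lay lowest with the combinatorial treatment at 10.62 and 10.86, UBE2C highest there at 12.76 and 12.80, and CDK1 and CCNB1 were lowest with clorgyline.

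To see what each drug added to the other, the combinatorial treatment was set against each drug alone. Against 5-Aza-CdR, 5 members were lower and none was higher, where 1.87% and 2.28% of all genes and 4.23% and 5.06% of bright genes were. They were CDK1 (-0.52, SE 0.11, limma adjusted p = 0.0299), HMMR (-0.48, SE 0.11, adjusted p = 0.0407), MCM6 (-0.47, SE 0.10, adjusted p = 0.0334), CCNA2 (-0.42, SE 0.09, adjusted p = 0.0308) and MCM4 (-0.38, SE 0.09, adjusted p = 0.0407). CDK1 thus read 11.16 and 10.94 with both drugs and 11.44 and 11.70 with 5-Aza-CdR alone, and CCNA2 11.21 and 11.37 against 11.73 and 11.68. CDT1 was lower by 0.53 (SE 0.17) without passing the test (adjusted p = 0.125). The second bright probe of MCM4 gave -0.02. The MCM4 call was lost in all 8 refits that left out an array (-0.44 to -0.32), and HMMR was kept only without either clorgyline array (-0.56 to -0.40). CDK1 was lost without 5-Aza-CdR replicate 2 or either combination array (-0.65 to -0.39), and MCM6 (-0.61 to -0.33) and CCNA2 (-0.50 to -0.33) without either 5-Aza-CdR array or combination replicate 1.

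Against clorgyline, 5 members were higher and 5 lower with the combinatorial treatment, where 7.67% and 7.79% of all genes and 15.6% and 17.1% of bright genes were. Of those higher, 4 were G2/M members: PTTG1 by 0.60 (SE 0.09, limma adjusted p = 8.2e-04), CCNB1 by 0.54 (SE 0.09, adjusted p = 0.00191), UBE2C by 0.52 (SE 0.11, adjusted p = 0.00721) and DLGAP5 by 0.51 (SE 0.13, adjusted p = 0.021). FEN1, the fifth, read 13.15 and 13.13 against 12.41 and 12.37 with clorgyline (0.75, SE 0.08, adjusted p = 1.3e-04). PTTG1 read 13.85 and 13.82 against 13.22 and 13.24, with 0.93 at its second probe. All 5 that were lower were S phase members: CDT1 (-1.51, SE 0.17, adjusted p = 1.6e-04), MCM6 (-0.64, SE 0.10, adjusted p = 0.00171), RFC4 (-0.51, SE 0.09, adjusted p = 0.00231), MCM4 (-0.31, SE 0.09, adjusted p = 0.0405) and MCM5 (-0.30, SE 0.09, adjusted p = 0.0431). The second bright probes of RFC4 and MCM4 gave -0.01 and 0.17. The calls of PTTG1, CCNB1, FEN1, CDT1, MCM6 and RFC4 held without any 1 array, UBE2C was lost without clorgyline replicate 1, DLGAP5 without clorgyline replicate 1 or either combination array, MCM4 without any array but the 2 of 5-Aza-CdR, and MCM5 in all 8 refits. The excess of the combinatorial treatment over the sum of the drugs passed for no member, against 0.13% of all genes above and 0.175% below it, with 3 members above and 1 below at an unadjusted p under 0.05, against 4.14% and 4.54% of all genes. The largest were MCM6 at -0.55 (SE 0.15, adjusted p = 0.227) and CDC20 at -0.43 (SE 0.29, adjusted p = 0.748).

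**Figure D4:**
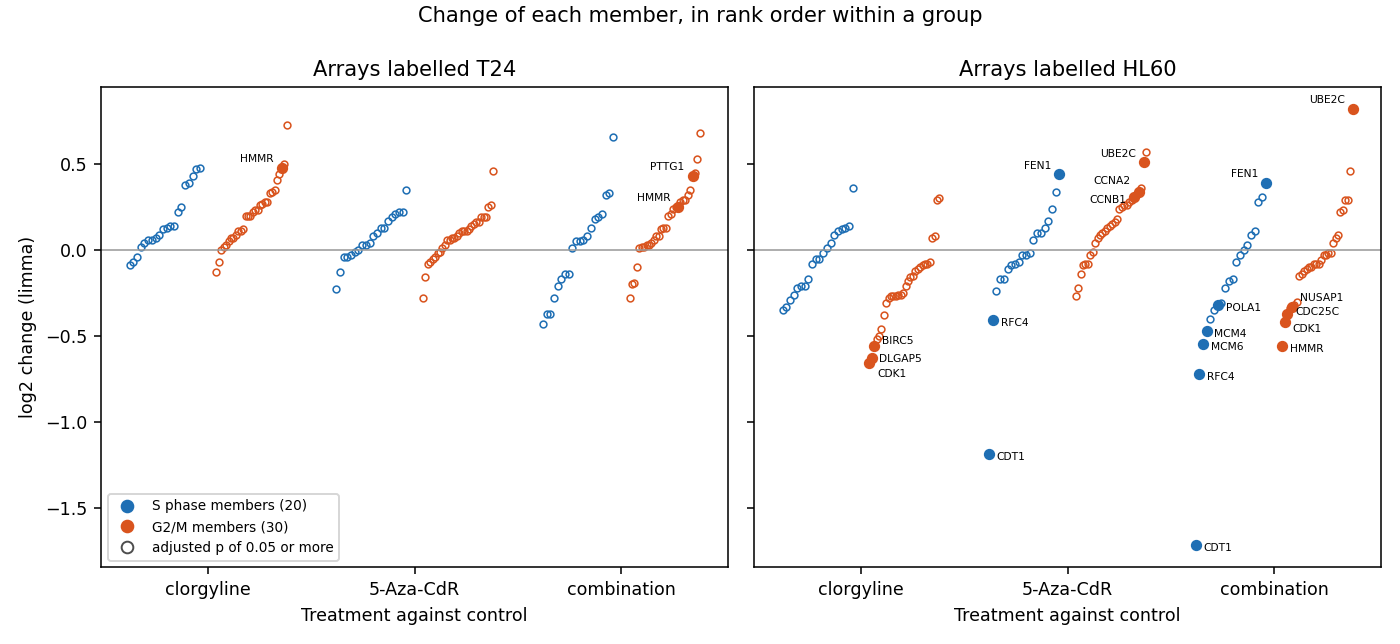
Log2 change of each member against control (vertical axis) for the 3 treatments in T24 (left) and HL60 (right), members ranked from low to high within the S phase (blue) and G2/M (orange) groups; filled points passed an adjusted p under 0.05 and are named. CDT1 changed by -1.19 and -1.72 in HL60, while no T24 member fell at that threshold.

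In T24 few members passed the test, and with clorgyline most changes were upward. The median change with clorgyline was 0.21 for the G2/M members and 0.13 for the S phase members. In HL60 these medians were -0.23 and -0.05, so the fewer calls in T24 do not show smaller changes. With clorgyline 1 of 50 rose and none fell, against 0.0998% and 0.359% of all genes and 0.294% and 1.11% of bright genes. It was HMMR, at 9.57 and 9.50 against 9.04 and 9.06 on control arrays (0.48, SE 0.03, limma adjusted p = 0.0132), with 0.21 at its second probe. The call was lost without either control array or either clorgyline array (0.44 to 0.51). In 45 of 50 members the change was positive, and in 29 both clorgyline arrays lay above both control arrays, against 21.9% of all genes. BIRC5 read 10.23 and 9.99 against 9.27 and 9.49 (0.73, SE 0.18, adjusted p = 0.166), PTTG1 12.07 and 12.25 against 11.62 and 11.71 (0.50, SE 0.07, adjusted p = 0.0668), FEN1 11.89 and 11.70 against 11.32 and 11.32 (0.48, SE 0.16, adjusted p = 0.304) and CDK1 10.67 and 10.92 against 10.40 and 10.50 (0.34, SE 0.12, adjusted p = 0.347). In each of these 4 the groups did not overlap, and none passed the test. The 6 helicase subunits stayed within -0.09 and 0.14. MCM4 differed by nearly 1 unit between the 2 clorgyline arrays, at 9.73 and 8.76. Over the 8 T24 arrays CCNB1 read 9.76 to 10.26, TOP2A 10.57 to 10.93 and MKI67 8.21 to 8.35.

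With 5-Aza-CdR no T24 member passed, where 0.0998% of all genes rose and 0.0399% fell, and 5 members were higher and none lower at an unadjusted p under 0.05, against 4.57% and 4.52% of all genes. The largest changes were 0.35 for MCM10, which helps start replication (SE 0.12, limma adjusted p = 0.457), and 0.46 for BIRC5 (SE 0.18, adjusted p = 0.531). On the lower side they were -0.23 for POLE2, of DNA polymerase epsilon, and -0.28 for KIF2C, a mitotic kinesin. CDT1, which fell in HL60, read 9.83 and 9.42 against 9.62 and 9.89 on control arrays. With the combinatorial treatment 2 rose and none fell, against 3.12% and 2.57% of all genes. PTTG1 read 12.03 and 12.16 against 11.62 and 11.71 (0.43, SE 0.07, adjusted p = 0.0316) and HMMR 9.31 and 9.28 against 9.04 and 9.06 (0.25, SE 0.03, adjusted p = 0.0175). Their second probes gave 0.19 and 0.02. HMMR lost its call whichever of the 4 arrays compared was left out (0.23 to 0.26) and PTTG1 without either control array, either 5-Aza-CdR array or combination replicate 2 (0.36 to 0.50). BIRC5 read 10.02 and 10.11 against 9.27 and 9.49 without passing. GINS2, of the GINS complex, reached 0.66 (SE 0.27, adjusted p = 0.259) and TYMS, thymidylate synthase, -0.43 (SE 0.27, adjusted p = 0.486), with combination arrays that differed between themselves, at 11.72 and 10.89 for TYMS and 10.06 and 10.68 for GINS2.

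Set against 5-Aza-CdR, the combinatorial treatment changed no T24 member, against 1.65% of all genes higher and 1.04% lower, with 7 members higher and 7 lower at an unadjusted p under 0.05, against 8.62% and 8.67% of all genes. The largest changes were -0.65 for TYMS and 0.60 for CDC20. Set against clorgyline, HMMR was lower by 0.23 (SE 0.03, limma adjusted p = 0.025) and no other member passed, against 2.61% and 1.33% of all genes. HMMR in T24 was thus highest with clorgyline alone, at 9.57 and 9.50, and between that and control with both drugs. That call was lost without either control, clorgyline or combination array (-0.27 to -0.20). The excess over additivity passed for no member, against 0.484% and 0.0748% of all genes, with 13 members below it and none above at an unadjusted p under 0.05, against 5.54% and 6.08% of all genes. Its largest value was -1.04 for TYMS (SE 0.38, adjusted p = 0.375).

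The response to clorgyline itself was compared between HL60 and T24 in a single fit over the 16 arrays of both lines. The response of 11 members was lower in HL60 and of none higher, against 1.11% and 1.67% of all genes. The 9 G2/M members were BIRC5 (-1.29, SE 0.22, limma adjusted p = 0.00972), CDK1 (-1.0, SE 0.17, adjusted p = 0.01), DLGAP5 (-0.90, SE 0.16, adjusted p = 0.0135), PTTG1 (-0.88, SE 0.10, adjusted p = 9.5e-04), HMMR (-0.75, SE 0.13, adjusted p = 0.0101), NUSAP1, TOP2A, CCNB1 and CCNA2, the last 4 at -0.70, -0.70, -0.66 and -0.60. FEN1 (-0.83, SE 0.17, adjusted p = 0.0226) and POLA1 (-0.64, SE 0.12, adjusted p = 0.0185) were the S phase members. In all 11 the change was upward in T24 and downward in HL60, though selection by a lower HL60 response favors such signs. Within a line, only HMMR passed in T24 and only CDK1, DLGAP5 and BIRC5 in HL60. For BIRC5 the change was 0.73 in T24 and -0.56 in HL60, for CDK1 0.34 and -0.66, and for PTTG1 0.50 and -0.38. PTTG1 kept its call without any 1 of the 16 arrays, and BIRC5, CDK1 and HMMR were lost without T24 control replicate 1 alone. CCNB1 was lost without T24 control or clorgyline replicate 2, and DLGAP5 without T24 control replicate 2, T24 clorgyline replicate 1 or HL60 control replicate 1. POLA1 was lost without T24 or HL60 control replicate 1, HL60 clorgyline replicate 1 or either T24 clorgyline array, and FEN1 without any control or clorgyline array except T24 clorgyline replicate 2. TOP2A was kept in 7 of 16 refits, those without an HL60 combination array, a 5-Aza-CdR array of either line or HL60 clorgyline replicate 2. CCNA2 was kept in 5, those without a combination array of either line or T24 clorgyline replicate 2, and NUSAP1 in 4, those without a T24 5-Aza-CdR or combination array. The doses of clorgyline were equal in the 2 lines. Each line was normalized apart, with lumi 2.8.0 for HL60 and 2.6.0 for T24, so line and processing cannot be told apart.

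**Figure D5:**
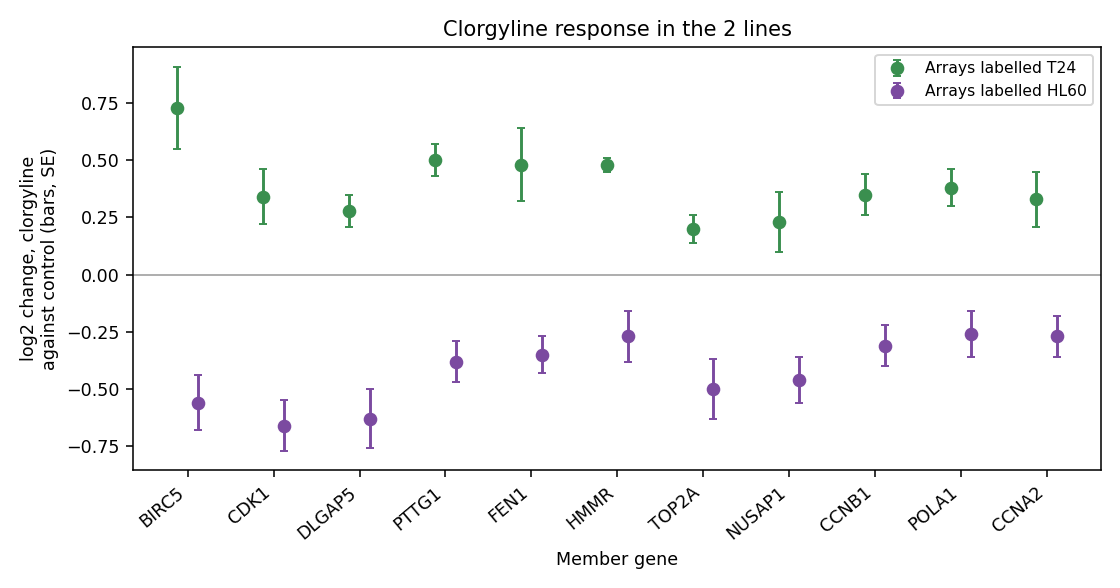
Log2 change with clorgyline against control (vertical axis, bars are the SE of each line's own fit, 2 arrays per group) for the 11 members whose response differed between the lines, with T24 in green and HL60 in purple. All 11 points lie above 0 in T24 and below 0 in HL60, with BIRC5 at 0.73 and -0.56.

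Where 5-Aza-CdR was given, its doses differed between the lines, at 0.1 µM in HL60 and 1 µM in T24, so line and dose cannot be told apart. With 5-Aza-CdR only CDT1 differed, at -1.07 (SE 0.29, limma adjusted p = 0.0493), against 2.72% of all genes lower and 3.51% higher, and it was kept only without T24 5-Aza-CdR replicate 2 or either HL60 clorgyline array (-1.27 to -0.86). With the combinatorial treatment 8 members were lower in HL60 and none higher, against 6.92% and 7.3% of all genes. CDT1 differed by -1.58 (SE 0.29, adjusted p = 0.00326), BIRC5 by -1.0, GINS2 by -0.97, HMMR by -0.81, CDK1 by -0.77, CDC25C by -0.65, NUSAP1 by -0.63 and POLA1 by -0.44. CDT1, BIRC5, HMMR, CDK1 and CDC25C were kept without any 1 of the 16 arrays, and POLA1 was lost without T24 or HL60 control replicate 1, T24 combination replicate 2 or HL60 combination replicate 1. NUSAP1 was lost without either T24 control array, HL60 control replicate 1 or combination replicate 1 of either line, and GINS2 was kept only without either T24 clorgyline array or T24 combination replicate 1 (-1.28 to -0.66).

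The treated arrays labelled HCT116 held higher S phase levels than the control arrays of that label, and the same arrays differed in EPCAM, CDH2 and KRT7 as given above. The S phase mean was 9.13 and 8.86 on control arrays and 9.68 to 9.92 on the 6 treated arrays. Against control, 15 members were higher and 1 lower with clorgyline, 19 and 2 with 5-Aza-CdR and 16 and 1 with the combinatorial treatment. No S phase member was called lower. Of the 41 S phase genes of the wider list described at the end, 3, 2 and 3 were called lower in these comparisons. Called higher were 13, 17 and 12 of them. The shares of all genes were 9.14% and 7.27%, 9.12% and 8.15%, and 8.81% and 7.94%. Those of bright genes were 19.6% and 13.4%, 21.9% and 14.7%, and 20.4% and 14.6%. Of the 45 bright members, 15 and 1, 18 and 1, and 15 and 1 were called. The median change of the S phase members was 0.68, 1.0 and 0.69, and of the G2/M members 0.01, 0.05 and -0.05. GINS2 read 8.18 and 8.28 on control arrays and 9.66 to 10.48 on treated arrays, higher by 1.73, 2.05 and 1.63 (SE 0.20, limma adjusted p = 0.00422, 0.00237 and 0.0051). CCNE1 (cyclin E1) read 7.90 and 7.74 and then 8.57 to 9.25, MCM10 8.07 and 8.43 and then 9.29 to 9.66, and MCM6 10.09 and 9.56 and then 10.79 to 11.14. In G2/M, CENPF, a kinetochore protein, read 8.01 and 8.14 and then 9.29 to 9.43, and CCNA2 9.34 and 9.12 and then 9.95 to 10.57. BUB1, a spindle checkpoint kinase, was higher by 1.10, 1.21 and 0.95. HMMR went the other way, at 9.81 and 9.43 and then 8.92 to 9.15. MCM2 read 9.01 and 8.72 and then 9.16 to 9.76, and PCNA 10.49 and 9.83 and then 10.60 to 11.32. Other genes overlapped between control and treated arrays. They were E2F1 (7.90 and 7.99, then 7.73 to 7.92), CCNE2 (7.58 and 7.57, then 7.57 to 7.64) and CDK1 (10.01 and 8.75, then 9.83 to 10.10). So did CCNB1 (9.58 and 9.01, then 9.57 to 10.22), TOP2A (10.99 and 10.31, then 9.96 to 10.50), MKI67 (7.83 and 7.97, then 7.88 to 8.02) and PTTG1 (11.52 and 11.82, then 11.04 to 11.57). MAD2L1, a spindle checkpoint protein, was called higher in all 3 comparisons at 1.13, 1.38 and 1.35, but its second bright probe gave -0.17, 0.15 and -0.11.

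Set against each other, the 3 treatments labelled HCT116 gave 1 call among the 50 members. With the combinatorial treatment set against 5-Aza-CdR no member passed, where no gene of all passed either, with 3 members lower and none higher at an unadjusted p under 0.05, against 2.7% and 2.73% of all genes. Against clorgyline no member passed, against 0.00998% and 0.444% of all genes, with 1 higher and 4 lower at an unadjusted p under 0.05, against 3.13% and 4.99% of all genes. Clorgyline against 5-Aza-CdR gave BUB1B, of the same checkpoint, at 8.16 and 8.11 against 8.43 and 8.44 (-0.31, SE 0.04, limma adjusted p = 0.0473), where 0.574% and 0.0748% of all genes were called. In a fit of the 6 treated arrays alone, added after the data were seen, BUB1B was called as before and no other member was. BUB1B kept that call only without either control array (-0.33 to -0.28). Against control, the 15 members higher with clorgyline became 8 and 7 without clorgyline replicate 1 and 2, and the 19 with 5-Aza-CdR became 9 and 8 without 5-Aza-CdR replicate 1 and 2. The 16 with the combinatorial treatment became 8 to 10 without a combination or a 5-Aza-CdR array.

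A wider list of 98 genes of the same processes was examined beside the members. Of its 96 genes with a probe, 41 act in S phase and 55 in G2/M. With clorgyline none passed in T24 or in HL60. At an unadjusted p under 0.05, 11 S phase and 14 G2/M genes were higher and 2 and 2 lower in T24, against 5.76% and 6.58% of all genes. In HL60 1 S phase and 2 G2/M genes were higher and 5 and 13 lower, against 6.51% and 5.41% of all genes. With the combinatorial treatment in HL60, 4 S phase genes rose and 12 fell, and 7 G2/M genes rose and 11 fell, where 8.7% of all genes rose and 8.47% fell, and 17.7% and 18.7% of bright genes. RFC1, the large subunit of the clamp loader, fell by 0.98 (SE 0.10, limma adjusted p = 9.6e-05), KNTC1, a kinetochore protein, by 1.01 (SE 0.15, adjusted p = 8.1e-04) and E2F2 by 0.85 (SE 0.11, adjusted p = 2.5e-04). RPA3, which coats single-stranded DNA, rose by 0.98 (SE 0.12, adjusted p = 2.8e-04), and CKS2, a partner of CDK1, and TK1, thymidine kinase, each by 0.65 (SE 0.12 and 0.10). With 5-Aza-CdR in HL60 3 S phase and 3 G2/M genes rose and 4 and 3 fell, where 5.46% of all genes rose and 4.94% fell, and 10.9% and 11% of bright genes. Among those that fell were PRIM1 (-0.69, SE 0.14, limma adjusted p = 0.0108), E2F2 (-0.66, SE 0.11, adjusted p = 0.00219) and RFC1 (-0.64, SE 0.10, adjusted p = 0.00261). Among those that rose were STMN1 (0.68, SE 0.11), CENPN (0.52, SE 0.09) and RPA3 (0.44, SE 0.12). In T24 the combinatorial treatment raised CENPN (0.47, SE 0.07, adjusted p = 0.0231) and lowered SPC24 (-0.43, SE 0.07, adjusted p = 0.0316) and POLE (-0.26, SE 0.05, adjusted p = 0.0429).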

How the data were processed

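RNA of 24 samples was hybridised to Illumina HumanHT-12 V4 arrays. The values deposited by the authors are log2 intensities, processed with lumi (2.6.0 for T24 and HCT116, 2.8.0 for HL60, per the submitters' processing notes) with Robust Spline Normalization, and the 8 arrays of each line shared 1 distribution of values. Levels are therefore not compared between lines or probes, and the number of arrays limits the precision. A change of RNA common to most genes would be removed by this step. Background correction is not given in the sources used here.

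Of 47231 probes, 30113 had 1 gene symbol in the platform annotation, 8 had several and 17110 were not in it. The probe with the highest mean in a line stood for a gene. Within each line limma 3.58.1 in R 4.3.3 was fitted to all 8 arrays with a mean per condition, as 2 arrays a group leave 4 residual degrees of freedom, and p values were adjusted by Benjamini-Hochberg over 20046 genes (20045 in HL60, where 2 probes lacked values). Responses of HL60 and T24 were compared in a fit over 16 arrays. All tests were two-sided, and the fit was tested on simulated data first. The limits of the methods, a p under 0.01 and a change over 2-fold, were run as an alternative with p taken as unadjusted, which the methods do not state, beside all probes, bright genes only, only the groups compared, a replicate block, a second quantile normalization, a trended robust prior and leaving out each array. Promoter windows came from RefSeq.

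The members, the wider list and the markers were chosen with earlier results of these data known, so list counts are descriptions. Named in each comparison, for S phase and G2/M apart, were up to 4 members a direction with the largest change among those called, or the 2 largest where none was. MCM2, PCNA, E2F1, CCNE2, CDK1, CCNB1, TOP2A, MKI67, HMMR and PTTG1 were named in each line, though not in each comparison. Of the wider list, the 3 largest called changes a direction were named for the treatments of T24 and HL60 against control. Other members named were chosen after their values were seen.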

Additional observations from a re-analysis of the deposited data

Results flagged for a closer look

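The response to a treatment differed between HL60 and T24, by a limma test of the difference itself, in 20 cases, all with the HL60 response lower. For clorgyline, HL60 minus T24 on the log2 scale was -1.29 for BIRC5, -1.0 for CDK1, -0.90 for DLGAP5, -0.88 for PTTG1, -0.83 for FEN1, -0.75 for HMMR, -0.70 for NUSAP1, -0.70 for TOP2A, -0.66 for CCNB1, -0.64 for POLA1 and -0.60 for CCNA2. For 5-Aza-CdR it was -1.07 for CDT1. For the combinatorial treatment it was -1.58 for CDT1, -1.0 for BIRC5, -0.97 for GINS2, -0.81 for HMMR, -0.77 for CDK1, -0.65 for CDC25C, -0.63 for NUSAP1 and -0.44 for POLA1. The arrays labelled T24 carried EPCAM at 12.54 to 12.95 and had a median correlation of 0.985 with the treated arrays of the HCT116 label, so which line the T24 label stands for is in doubt, and its part in these differences was not tested.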

How the results depend on the processing

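No called member changed sign under any alternative, but these did not test a member's other probes. The setting with all probes widened the adjustment and still read each member's brightest probe. In HL60 the members, called or not, had 21 other bright probes. Their sign was opposite to that of the brightest probe in 3 for clorgyline against control. It was opposite in 9 for 5-Aza-CdR against control and in 7 for both drugs against control. In T24 these counts were 1, 7 and 2 of 15. Of 114 calls of single members, 101 were kept with all probes, 98 of 111 with bright genes only, 67 with only the compared groups fitted, 101 with the replicate block, 109 after a second quantile normalization, 94 with a trended and robust prior and 34 at an unadjusted p under 0.01 with a change over 2-fold. Counts of members changed as follows, and the cause was not tested except that the last limit removes changes under 2-fold and that a fit of 2 groups has fewer arrays. With all probes, as after a second quantile normalization, no member had a lower response to 5-Aza-CdR in HL60 than in T24 (0). With bright genes only, the HCT116 counts were 1 lower with 5-Aza-CdR, 2 lower with the combinatorial treatment and 0 lower for clorgyline against 5-Aza-CdR. The same setting gave 1 lower with clorgyline and 3 lower for the combinatorial treatment against clorgyline in HL60, and 3 higher with clorgyline and 2 lower for the combinatorial treatment against clorgyline in T24. With only the groups compared, HCT116 gave 10 higher and 0 lower with 5-Aza-CdR, 7 and 0 with clorgyline and 4 and 0 with the combinatorial treatment. HL60 gave 5 lower with clorgyline, and 2 and 3 lower for the combinatorial treatment against 5-Aza-CdR and clorgyline. T24 gave 5 higher and 1 lower with the combinatorial treatment and 0 lower against clorgyline, and 1 member had a higher HL60 response to 5-Aza-CdR.

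Deviations of same-numbered arrays correlated weakly between conditions, at -0.12 to 0.07 in T24, -0.07 to 0.18 in HL60 and -0.04 to 0.21 in HCT116. Of 6 pairs of conditions, 2 in HL60 and 1 in HCT116 exceeded 0.1. The main fit did not pair the samples by these numbers. With the replicate block HL60 gave 8 lower for the combinatorial treatment against 5-Aza-CdR, T24 0 lower for it against clorgyline, and HCT116 3 lower with it and 0 lower for clorgyline against 5-Aza-CdR. With a trended and robust prior HL60 gave 2 higher and 1 lower with 5-Aza-CdR, 1 higher and 2 lower for the combinatorial treatment against it and 3 lower against clorgyline. T24 gave 3 higher with clorgyline, and 1 higher with 1 lower and 1 higher with 2 lower for the combinatorial treatment against 5-Aza-CdR and clorgyline. HCT116 gave 2 lower with the combinatorial treatment and 0 lower for clorgyline against 5-Aza-CdR. At an unadjusted p under 0.01 with a change over 2-fold, HL60 gave 0 higher and 1 lower with 5-Aza-CdR, with the combinatorial treatment and for it against clorgyline, and 0 with clorgyline and for the combinatorial treatment against 5-Aza-CdR. T24 gave 0 throughout, HCT116 8, 13 and 7 higher and 0 lower against control and 0 for clorgyline against 5-Aza-CdR, and 2 members had a lower HL60 response to clorgyline and 2 to the combinatorial treatment.

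Leaving out 1 array at a time, the T24 counts ran from 0 to 1 higher with clorgyline, 0 to 2 higher and 0 to 1 lower with the combinatorial treatment, and 0 to 2 and 0 to 4 lower for it against 5-Aza-CdR and clorgyline. In HL60 they ran from 0 to 2 lower with clorgyline, 0 to 3 higher and 1 to 2 lower with 5-Aza-CdR, 1 to 4 higher and 5 to 9 lower with the combinatorial treatment, 0 to 6 lower for it against 5-Aza-CdR, and 4 to 6 higher and 3 to 4 lower against clorgyline. In HCT116 they ran from 7 to 21 higher and 0 to 4 lower with clorgyline, 8 to 24 and 0 to 4 with 5-Aza-CdR, 8 to 22 and 0 to 4 with the combinatorial treatment and 0 to 1 lower for clorgyline against 5-Aza-CdR. HL60 responses were lower than those of T24 in 3 to 10 members with clorgyline, in 0 to 2 with 5-Aza-CdR and in 5 to 9 with the combinatorial treatment, and higher in 0 to 1 with 5-Aza-CdR and 0 to 2 with the combinatorial treatment. Values of members near background may understate a change.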
